A study of Rattus norvegicus with 15 samples.

Results

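The AP-1 transcription factor family was examined through 8 genes, Fos, Fosb, Fosl1, Fosl2, Jun, Junb, Jund and Atf3, of the 37367 genes in an RNA sequencing table of rat brain microvascular endothelial cells (BMECs). The members were chosen by name. Every transcript that carried a member's name, and every unnamed transcript of a locus that held only that name, was taken, and their FPKM were summed for each gene and library. FPKM counts the fragments of a transcript relative to its length and to the size of the library, so that levels can be set side by side between genes. All 8 members averaged 0.5 FPKM or more over the 15 libraries, the filter that left 17895 genes to be tested.

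The cells were primary BMECs of Sprague-Dawley littermates of both sexes aged 2 to 3 weeks, with no transgene, and were x-rayed in culture at 2.5 Gy/min. There were 5 groups of 3 libraries each, an unexposed control group labelled as cultured for 12 h, and cells collected 12 h or 24 h after 5 Gy or 20 Gy. Unexposed cells at 24 h were not analysed here, and at that time the effects of exposure and of longer culture cannot be told apart. The study calls the libraries biological replicates, but which rats went into each is not given, so the p-values measure the spread between these libraries. The aligned sequence ranged from 5.44 to 7.49 gigabases per library, read from the steps between low FPKM values.

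The labelled cell type was checked against its markers. Of 11 endothelial markers in the table, 9 had a mean below 1 FPKM and 2 of these, Tie1 and Emcn, were listed at 0 in every library. Hspa8, a chaperone gene that every cell uses, was listed at 0 in all 15 libraries as well, so an exact 0 can be a failed estimate. The highest were the receptor gene Flt1 at 2.84 ± 0.455 and Egfl7 at 2.51 ± 0.354 FPKM in the control group (SD, n = 3). The summed FPKM of the 11 ranged from 6.38 to 6.98 in the control group and from 3.79 to 8.54 in the exposed groups. The 6 fibroblast markers summed to 1798 to 1987 FPKM in the control group and to 272 to 326 FPKM 24 h after 20 Gy, and the 6 pericyte markers, of which 2 were listed at 0 throughout, to 152 to 160 and 49.9 to 76.5 FPKM. The endothelial markers were thus low beside the fibroblast markers, and the values below are those of the cultures as labelled. In bulk libraries, fewer cells of a type and less RNA per cell cannot be told apart.

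AP-1 is a dimer of basic leucine zipper (bZIP) proteins that binds the TPA response element (TRE) in promoters and enhancers. Fos proteins bind DNA only with a Jun partner, whereas Jun proteins also pair with each other. Fos, Fosb, Jun and Junb are immediate early genes, switched on within minutes by growth factors and stress through messengers that decay quickly. Fosl1 and Fosl2 respond later and encode proteins without the strong activation domain of Fos, Jund is made steadily in resting cells, and Atf3 is a stress-induced member that can act as a repressor. In endothelial cells AP-1 takes part in the control of cytokine, adhesion and matrix genes.

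The promoters of a member that rose and of one that fell are shown to set their sequence beside their levels. RefSeq sequences (build GRCr8) from 250 bases before to 50 bases after the start were at hand for 5 of the 8 members, Fosb, Fosl1, Fosl2, Junb and Jund. The first sequence below is Junb (chr19:40080876-40081175, plus strand), and the second is Jund (chr16:18769722-18770021, minus strand), each 5′ to 3′. Capitals mark the CCAAT box (CCAAT), the TATA box (TATAAA) and the cyclic AMP response element (CRE, TGACGTCA), a palindrome that AP-1 and ATF dimers can bind.
Junb: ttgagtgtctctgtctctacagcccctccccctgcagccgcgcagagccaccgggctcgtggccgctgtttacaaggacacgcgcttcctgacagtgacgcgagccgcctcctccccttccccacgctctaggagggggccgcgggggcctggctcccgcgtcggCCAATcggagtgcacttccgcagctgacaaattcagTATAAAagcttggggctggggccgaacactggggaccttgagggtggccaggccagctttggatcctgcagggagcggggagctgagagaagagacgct
Jund: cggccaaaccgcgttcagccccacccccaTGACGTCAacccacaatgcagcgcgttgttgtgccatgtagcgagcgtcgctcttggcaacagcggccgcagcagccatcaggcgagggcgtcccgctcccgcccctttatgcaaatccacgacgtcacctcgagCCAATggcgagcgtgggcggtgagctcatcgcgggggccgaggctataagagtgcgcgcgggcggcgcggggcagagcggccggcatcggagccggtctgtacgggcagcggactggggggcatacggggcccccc
Positions are counted from the start, with bases before it negative. Junb held its TATA box at -49 to -44 and its CCAAT box at -85 to -81. Jund held the CRE at -221 to -214, a CCAAT box at -86 to -82 and 3 GC boxes (GGGCGG, a site of Sp1-type factors). Both strands were searched.

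Among 33469 promoters of the same length, 1.829% held the CRE, 37.494% a CCAAT box, 14.222% a TATA box and 33.063% a GC box. The TRE (TGACTCA), in 4.631% of promoters, the heat shock element (GAANNTTC), in 8.59%, and the CArG box of serum response factor, in 1.637%, had no match in the 5 member promoters. The search covered only these letters in this window.

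In the control group, Jund and Junb had the highest levels of the family. Jund gave 94.7, 88.8 and 86.1 FPKM in the 3 libraries, and Junb gave 63.2, 64.0 and 65.5 FPKM. Jun followed at 22.5 ± 1.74 FPKM (SD, n = 3). Fos at 10.2 ± 1.04, Fosl1 at 9.98 ± 2.12 and Fosl2 at 8.23 ± 0.791 FPKM overlapped in their ranges, and Atf3 at 0.835 ± 0.054 and Fosb at 0.754 ± 0.215 FPKM were lowest and overlapped as well. The family in control cells was thus mainly Jund and Junb, with 43.5% ± 2.16 and 31.1% ± 0.562 of the summed FPKM of 207 ± 2.75 (SD, n = 3).

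**Figure D1:**
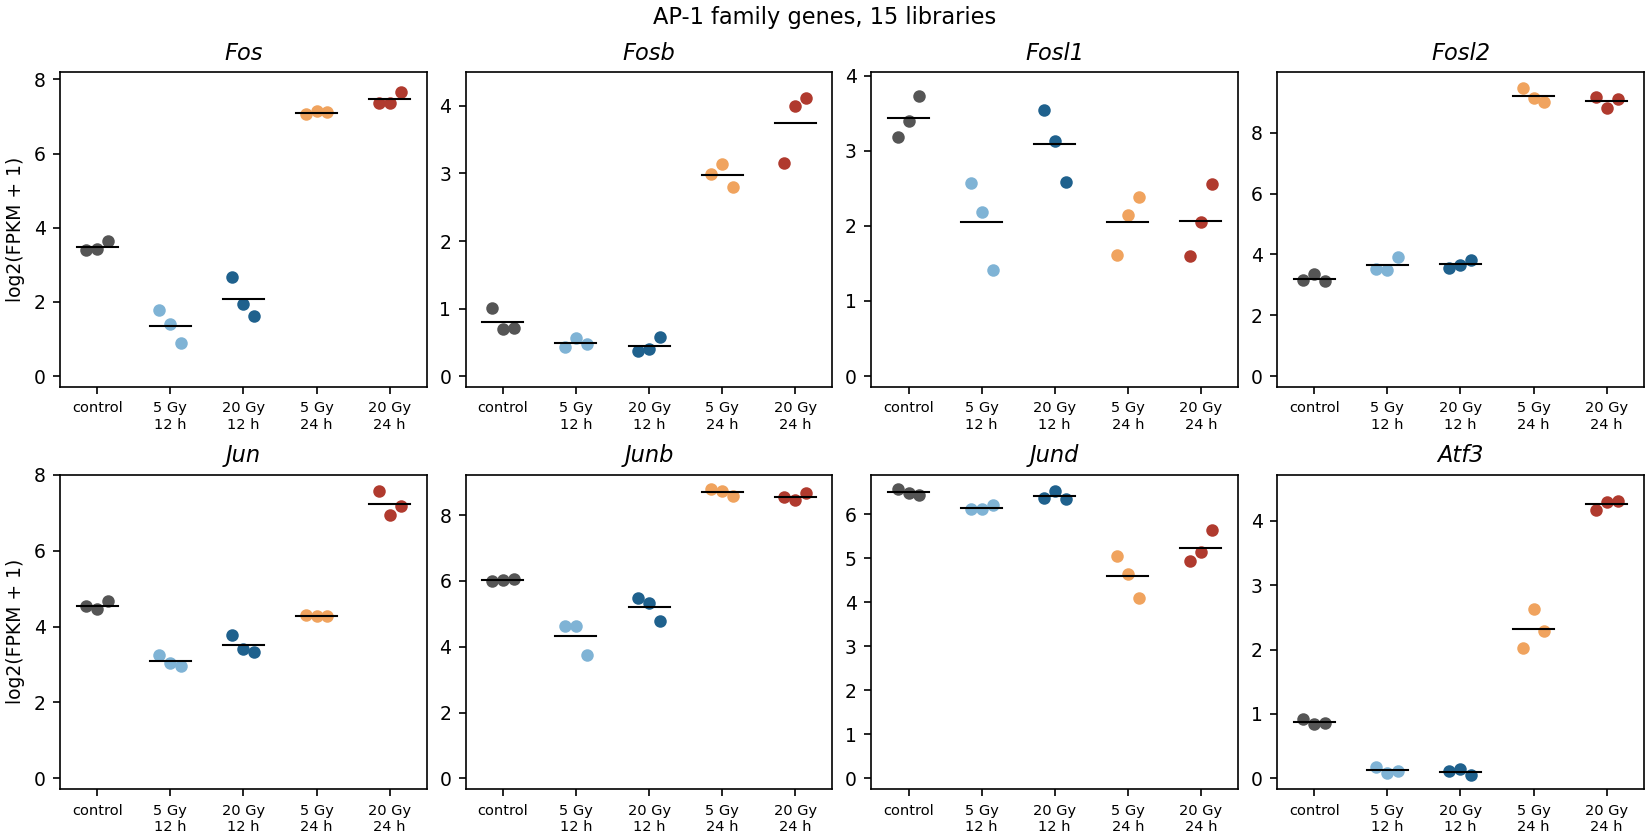
Level of the 8 AP-1 genes as log2(FPKM + 1), with each of the 15 libraries as a point, the 5 groups along the x axis and group means as lines; each panel has its own scale. Fos and Junb dip at 12 h and stand far above the control group at 24 h, Jun is high only 24 h after 20 Gy among the groups shown, and Jund is lowest at 24 h.

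Exposed cells were compared with control cells to ask how x-ray dose and time changed the family. The test was limma on log2(FPKM + 1), with 1 mean per group, and a gene was called at a Benjamini-Hochberg adjusted p below 0.05 over all 17895 genes and a fold change of at least 1.5. At 12 h every member that was called fell. After 5 Gy, 5 of 8 members fell and 0 rose, where 4.96% of all genes tested were called lower and 4.98% higher. After 20 Gy, 4 of 8 fell and 0 rose, where 3.64% were called lower and 4.9% higher. With a fold of at least 2, 2 members, Fos and Jun, were called lower 12 h after 20 Gy, as were 1.11% of all genes. The median log2 fold change of the members was -1.07 after 5 Gy and -0.56 after 20 Gy, against 0.03 and 0.01 over all genes. The libraries of 8 members after 5 Gy and of 6 after 20 Gy did not overlap with the control libraries, as for 38.5% and 36.8% of all genes.

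At 24 h most members rose. After 5 Gy, 5 rose and 2 fell, where 20.5% of all genes were called higher and 20.8% lower. After 20 Gy, 6 rose and 2 fell, where 17% were called higher and 23.3% lower. The median of the members was 1.81 after 5 Gy and 2.81 after 20 Gy, against -0.05 and -0.14 over all genes. At 24 h no member overlapped with the control group at either dose, which held for 67.4% of all genes after 5 Gy and 62.7% after 20 Gy. Such a separation gives an exact permutation p of 0.1 (two-sided), the smallest that 3 libraries against 3 allow.

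**Figure D2:**
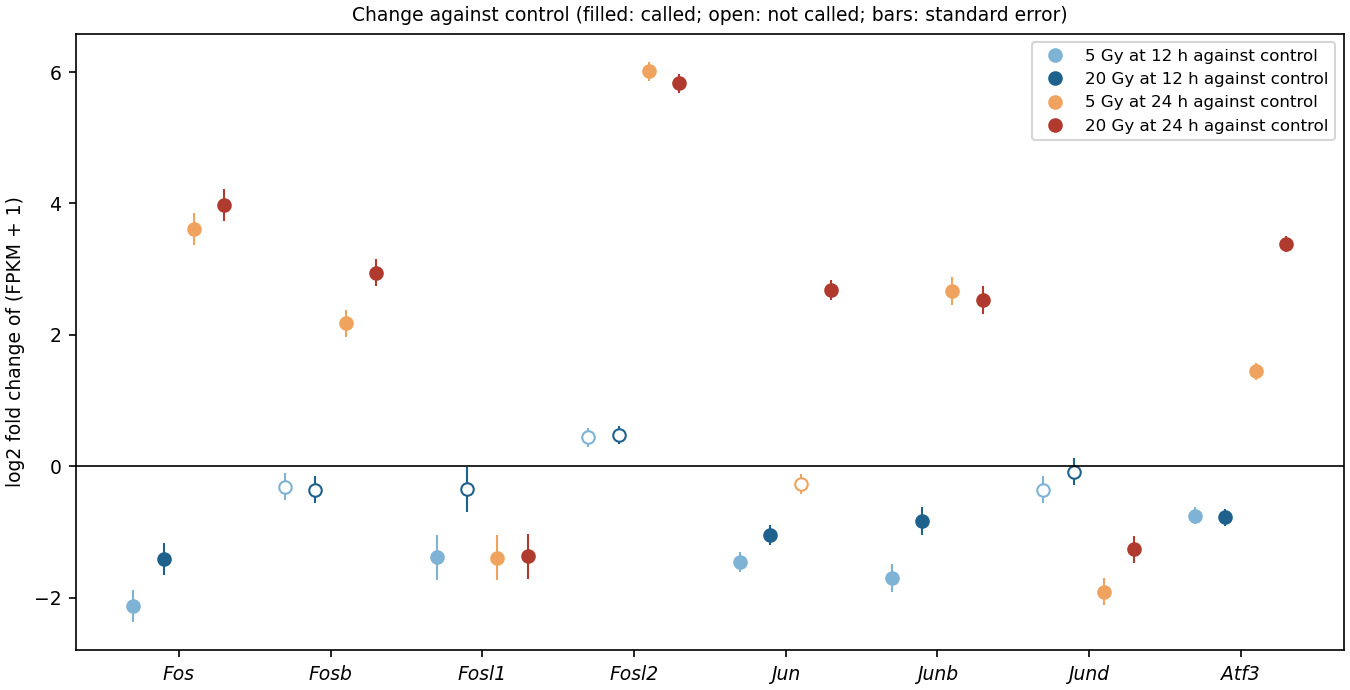
Log2 fold change of FPKM + 1 against the control group for the 8 genes, with 1 point per exposed group (3 libraries against 3) and bars for the standard error; filled points were called and open points were not. All called values lie below 0 at 12 h, while at 24 h Fos, Fosb, Fosl2, Junb and Atf3 lie above 0 at both doses, Fosl1 and Jund lie below, and Jun is above 0 only after 20 Gy. The Fosl2 and Fosl1 points at 24 h rest on unnamed transcripts.

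Fos (chr6:109300433-109303299, plus strand, Rnor_6.0), the founding member, had 1 transcript of 4 exons, ENSRNOT00000010712. Its FPKM was 9.55, 9.75 and 11.4 in the control libraries. At 12 h it was 2.43, 1.67 and 0.839 after 5 Gy and 5.32, 2.85 and 2.09 after 20 Gy. All 6 libraries lay below all control libraries. At 24 h it was 134, 139.5 and 137 after 5 Gy and 164, 163 and 200.1 after 20 Gy, and all 6 libraries lay above. The log2 fold change was -2.13 (SE 0.242, adjusted p 8.02e-05) and -1.41 (adjusted p 0.00182) at 12 h, then 3.62 (adjusted p 8.75e-08) and 3.97 (adjusted p 4.29e-08) at 24 h. As a ratio of mean FPKM, Fos stood at 0.161 of the control level 12 h after 5 Gy and at 13.3 and 17.2 times it 24 h after 5 Gy and 20 Gy.

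Fosb (chr1:80214494-80221741, minus strand) is a close relative of Fos. Its summed FPKM was 1.00, 0.627 and 0.634 in the control libraries and 0.297 to 0.493 in the 6 libraries at 12 h, which was not called at either dose. It was 6.97, 7.85 and 5.97 at 24 h after 5 Gy and 7.89, 14.9 and 16.3 after 20 Gy. The rise was 2.18 on the log2 scale after 5 Gy (SE 0.206, adjusted p 1.63e-06) and 2.95 after 20 Gy (adjusted p 1.31e-07). The libraries after 20 Gy were the more spread, with 1 of the 3 close to the 5 Gy libraries.

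The 6 Fosb transcripts did not move alike. ENSRNOT00000072149, an annotated transcript of 4 exons, was listed at 0 in 2 of 3 control libraries and in all 6 libraries at 12 h, and reached 4.17, 5.31 and 3.91 FPKM 24 h after 5 Gy and 1.77, 10.6 and 13.9 FPKM after 20 Gy. The other annotated transcript, ENSRNOT00000091687 with 3 exons, stayed between 0 and 0.609 FPKM in all 15 libraries. The other 4 were unnamed. Unnamed transcripts overlap the annotated ones, so how the fragments were shared among them is an estimate of the assembler.

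Fosl1 (chr1:220826560-220836095, plus strand) encodes Fra-1. Its summed FPKM was 8.10, 9.57 and 12.3 in the control group, and 4.95, 3.54 and 1.67 at 12 h after 5 Gy. It was 10.7, 7.77 and 5.01 at 12 h after 20 Gy, which overlapped with the control group. At 24 h it was 2.05, 3.42 and 4.24 after 5 Gy and 2.02, 3.16 and 4.91 after 20 Gy. The log2 fold changes were -1.38 12 h after 5 Gy (SE 0.340, adjusted p 0.0130), -0.35 12 h after 20 Gy (adjusted p 0.546), and -1.39 (adjusted p 0.00333) and -1.37 (adjusted p 0.00379) at 24 h.

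The falls at 24 h lay in an unnamed transcript. MSTRG.2405.1, which runs past the annotated 3′ end, gave 5.81, 5.91 and 7.12 FPKM in the control group and 0.0569 to 0.692 FPKM in the 6 libraries at 24 h. The annotated Fosl1 transcript, ENSRNOT00000027891, gave 2.28, 3.65 and 5.15 FPKM in the control group and 1.93 to 4.63 FPKM at 24 h, which overlapped. With annotated transcripts alone the log2 fold change at 24 h was -0.24 after 5 Gy (adjusted p 0.643) and -0.17 after 20 Gy (adjusted p 0.757), and 12 h after 5 Gy it was -0.68 (adjusted p 0.304), so these calls were lost. The call 12 h after 5 Gy was also lost without Control 3 (adjusted p 0.0569) and without the third 5 Gy library (adjusted p 0.0591). A single-exon transcript on the opposite strand, MSTRG.2406.1, overlaps this 3′ part, and its FPKM was 65.6 to 107 in the control group and 2.79 to 6.16 at 24 h. Whether the libraries kept the strand is not given in the sources used here, so reads of the 2 transcripts cannot be told apart.

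Fosl2 (chr6:25545228-25617937, minus strand) encodes Fra-2 and had, on the summed FPKM, the largest rise against control of the 8. Its summed FPKM was 7.92, 9.13 and 7.64 in control cells. It was 10.5, 10.2 and 14.02 after 5 Gy and 10.8, 11.6 and 13.2 after 20 Gy at 12 h, and all 6 libraries lay above the control libraries. It then reached 709, 567 and 520.02 after 5 Gy and 571, 450.2 and 553 after 20 Gy at 24 h. The differences at 12 h were 0.44 (SE 0.144, adjusted p 0.0501) and 0.48 (adjusted p 0.0386) on the log2 scale, neither of which was called. The rises at 24 h were 6.01 (adjusted p 2.44e-11) and 5.83 (adjusted p 2.58e-11).

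Nearly all of this signal was in 1 unnamed transcript, MSTRG.19545.1, with 5 exons and 1750 bases in a span of 72710 bases. Its mean FPKM 24 h after 5 Gy and 20 Gy was 69.2 and 64.4 times the control mean. The annotated transcript ENSRNOT00000077894, of 762 bases, was listed at 0 in 13 of 15 libraries, at 0.223 FPKM in Control 2 and at 103 FPKM in the first library 24 h after 5 Gy. With annotated transcripts alone, the log2 fold change was 2.14 (adjusted p 0.2204) 24 h after 5 Gy and -0.10 (adjusted p 0.966) 24 h after 20 Gy, so the calls rest on the unnamed transcript. Whether it is the Fosl2 messenger was not tested. A single-exon transcript beside the annotated 3′ end, MSTRG.19547.1, which the rule did not use and which is listed on the plus strand, opposite to Fosl2, gave 6.04 to 6.77 FPKM in the control group, 78.7 to 96.5 FPKM 24 h after 5 Gy and 88.7 to 97.7 FPKM after 20 Gy. Its libraries at 24 h did not overlap with the control libraries, and its means were 14.1 and 14.6 times the control mean. With the strand setting not given, its reads cannot be told apart from those of Fosl2 itself.

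**Figure D3:**
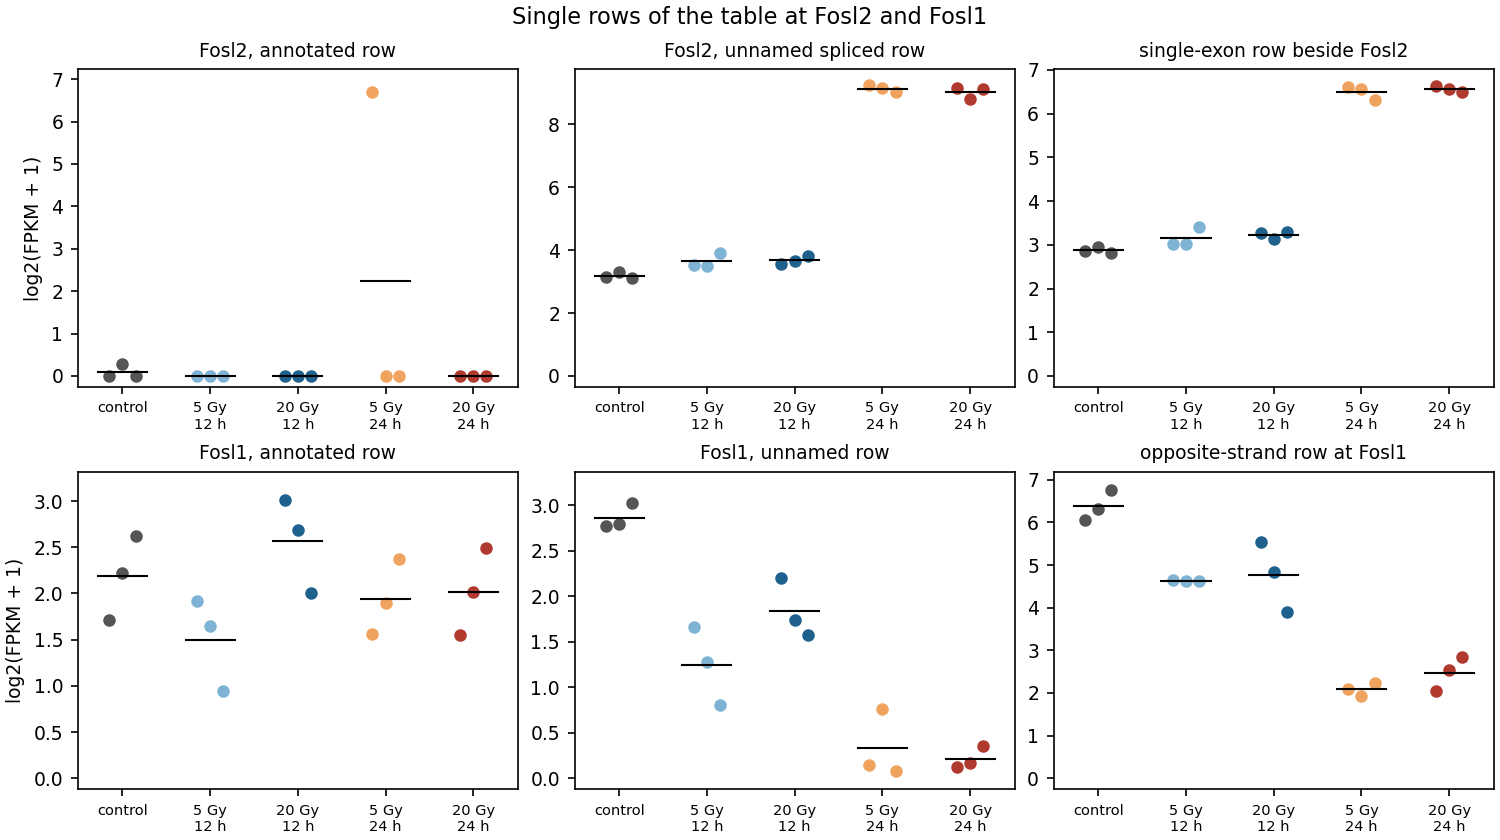
Log2(FPKM + 1) of single transcripts at Fosl2 (upper panels) and Fosl1 (lower panels), with each library as a point and group means as lines; each panel has its own scale. The unnamed Fosl2 transcript and the single-exon transcript beside the gene are high in all 6 libraries at 24 h while the annotated one is above 1 FPKM in 1 library, and at Fosl1 the unnamed and the opposite-strand transcripts are low at 24 h while the annotated one is not.

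Jun (chr5:114011189-114014277, minus strand), which encodes the main partner of Fos and is a target of Jun N-terminal kinase, had a single exon and 1 transcript. Its FPKM was 22.3, 20.9 and 24.3 in control cells. The 12 h values were 8.58, 7.29 and 6.82 after 5 Gy and 12.8, 9.70 and 9.06 after 20 Gy, all below the control libraries. The 24 h values were 18.7, 18.5 and 18.4 after 5 Gy, and 189.9, 122 and 143 after 20 Gy. The libraries 24 h after 5 Gy lay just below the control libraries and those after 20 Gy far above.

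The log2 fold change of Jun was -1.46 (SE 0.152, adjusted p 4.36e-05) and -1.04 (adjusted p 0.000629) at 12 h. The 24 h values were -0.26 after 5 Gy (adjusted p 0.153), not called, and 2.68 after 20 Gy (adjusted p 2.36e-08). The mean FPKM 24 h after 20 Gy was 6.74 times that of the control group, against 0.823 times 24 h after 5 Gy.

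Junb (chr19:26092974-26094756, minus strand), a partner that is less active than Jun at many promoters, also had 1 single-exon transcript. From the control values above it went to 23.6, 23.6 and 12.6 FPKM 12 h after 5 Gy, and to 43.5, 39.2 and 26.5 FPKM 12 h after 20 Gy. Its 24 h level was 439, 420.3 and 379 FPKM after 5 Gy and 371, 353 and 405 FPKM after 20 Gy. The 12 h libraries all lay below the control libraries and the 24 h libraries all above. The log2 fold changes were -1.69 (SE 0.211, adjusted p 0.000158) and -0.83 (adjusted p 0.0176) at 12 h, and 2.66 (adjusted p 3.56e-07) and 2.53 (adjusted p 5.97e-07) at 24 h. The call 12 h after 20 Gy was lost without Control 2 (-0.83, adjusted p 0.0503), without Control 3 (-0.82, adjusted p 0.0551) and without the third 20 Gy library (-0.62, adjusted p 0.0764).

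Jund (chr16:20481905-20486712, minus strand) went the other way at 24 h. Its FPKM was 68.5, 68.8 and 72.7 at 12 h after 5 Gy and 82.1, 91.8 and 80.7 after 20 Gy, with log2 fold changes of -0.36 (SE 0.205, adjusted p 0.261) and -0.08 (adjusted p 0.836), neither called. At 24 h it was 32.0, 24.1 and 16.0 after 5 Gy and 29.8, 34.4 and 48.9 after 20 Gy, all below every other library. The falls were 1.91 (adjusted p 4.91e-06) and 1.26 (adjusted p 0.000175) on the log2 scale. In the first library 24 h after 5 Gy, the unnamed transcript MSTRG.9175.1 took 24.8 of the 32.0 FPKM, while in the other 14 libraries it was at most 0.00758 FPKM. The annotated transcript ENSRNOT00000026470 alone gave 7.13, 24.1 and 16.0 FPKM there, a lower level.

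Atf3 (chr13:109817728-109849632, minus strand) was low in the control group, at 0.897, 0.796 and 0.814 FPKM. At 12 h it lay between 0.0326 and 0.134 FPKM in the 6 libraries, all below the control libraries. At 24 h it was 3.09, 5.19 and 3.90 FPKM after 5 Gy and 17.1, 18.7 and 18.8 FPKM after 20 Gy. The log2 fold changes, which the pseudocount makes smaller at such levels, were -0.75 (SE 0.127, adjusted p 0.00134) and -0.78 (adjusted p 0.00131) at 12 h, and 1.44 (adjusted p 8.89e-07) and 3.39 (adjusted p 7.73e-10) at 24 h. The main transcript, ENSRNOT00000005085 with 4 exons, was listed at 0 in all 6 libraries at 12 h. Its mean FPKM at 24 h was 5.28 times that of the control group after 5 Gy and 24.1 times after 20 Gy.

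From 12 h to 24 h at the same dose, 6 members rose after 5 Gy and 1 fell, where 17.1% of all genes were called higher and 19.3% lower. After 20 Gy 6 rose and 2 fell, where 14.1% were called higher and 22.1% lower. Of the genes called in that comparison 38.9% were higher, against 49.8% with quantile normalization. Fos rose by 5.75 on the log2 scale after 5 Gy (adjusted p 2.68e-09) and by 5.38 after 20 Gy (adjusted p 4.18e-09). Junb rose by 4.36 and 3.36, Jun by 1.19 and 3.72, and Atf3 by 2.20 and 4.16. Jund fell by 1.56 and 1.18. Fosl1 differed by -0.01 after 5 Gy (adjusted p 0.986) and fell by 1.02 after 20 Gy (adjusted p 0.0223), a call lost without the first 20 Gy library at 12 h (-0.79, adjusted p 0.0952), the second at 12 h (-0.996, adjusted p 0.0561) or the first at 24 h (-0.78, adjusted p 0.0971).

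The doses were then compared at the same time. At 12 h, 0 of 8 members were called in limma, where 0.117% of all genes were called higher after 20 Gy and 0.00559% lower. In 4 of 8 members all 3 libraries after 20 Gy lay above all 3 after 5 Gy, as for 12.8% of all genes that did not overlap in either direction. The differences of these 4 were 1.032 for Fosl1 (SE 0.340, adjusted p 0.461), 0.86 for Junb (SE 0.211, adjusted p 0.1799), 0.42 for Jun and 0.27 for Jund. At an unadjusted p under 0.05 with the same fold, 3 members passed, as did 2.02% of all genes.

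At 24 h 2 of 8 members were higher after 20 Gy, where 0.956% of all genes were called higher and 1.46% lower. Of those called 39.5% were higher, against 56.9% with quantile normalization and 27.8% with the libraries rescaled to the same sum. The 2 members were Jun, by 2.94 on the log2 scale (SE 0.152, adjusted p 1.77e-06), and Atf3, by 1.94 (SE 0.127, adjusted p 8.85e-06). In 4 members, Jun, Atf3, Fos and Fosb, all 3 libraries after 20 Gy lay above all 3 after 5 Gy. Of all genes, 23.2% did not overlap in either direction. Fosb differed by 0.77 (SE 0.206, adjusted p 0.0545) and Jund by 0.65 (SE 0.205, adjusted p 0.0953), which were not called. Without the first library 24 h after 20 Gy Fosb was called (1.07, adjusted p 0.00189), and without the first library 24 h after 5 Gy Jund was (0.87, adjusted p 0.0301). The differences of Fos, 0.36 (SE 0.242), Fosl2, -0.18 (SE 0.144), and Junb, -0.13 (SE 0.211), were not called either. At an unadjusted p under 0.05 with the same fold, 4 members passed, as did 4.84% of all genes.

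The test of whether the change from 12 h to 24 h differed between the doses gave the same 2 genes, where 0.257% of all genes were called with a larger change after 20 Gy and 0.296% with a smaller one, at an adjusted p below 0.05 with no limit on the fold. Of those called 46.5% had the larger change, against 61.2% with quantile normalization and 30.2% with rescaling. Jun rose by 2.52 more on the log2 scale after 20 Gy (SE 0.215, adjusted p 0.000351) and Atf3 by 1.97 more (SE 0.1797, adjusted p 0.000513). Junb differed by -0.996 (SE 0.299, adjusted p 0.173). Without the first library 24 h after 20 Gy Fosb joined them (1.11, adjusted p 0.0267). At an unadjusted p under 0.05, 4 members passed, as did 12.9% of all genes.

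Heat shock genes moved with these 24 h groups and with the dose. The 9 of them in the table summed to 355 to 418 FPKM in the control group, 323 to 361 FPKM at 12 h, 2259 to 3038 FPKM 24 h after 5 Gy and 7941 to 9629 FPKM 24 h after 20 Gy, with 1 of them listed at 0 throughout. Of 8 tested, 7 rose 24 h after 5 Gy, 8 rose 24 h after 20 Gy, and 7 were higher after 20 Gy than after 5 Gy at 24 h, where 20.5%, 17% and 0.956% of all genes were called higher. Their part in the rise of Fos, Fosb, Fosl2, Jun, Junb and Atf3 was not tested. Markers of other cells also moved with the 24 h groups. Of 6 fibroblast markers, 5 fell at 24 h at each dose, and Pdgfra, at 52.1 FPKM in the control group and 60.8 and 51.6 FPKM at 24 h, was not called. All 3 pericyte markers tested fell at both doses, where 20.8% and 23.3% of all genes were called lower. The 4 neuron markers summed to 60.7 to 74.3 FPKM in the control group, then 23.5 to 32.2 and 22.1 to 39.4 at 24 h. This fall was in Stmn2, from a mean of 58.7 FPKM to 18.6 and 20.4, while Syt1 went from 6.68 to 9.84 and 9.18. The 6 microglia markers summed to 21.2 to 25.2, then 10.7 to 11.4 and 8.57 to 13.3 FPKM. Nearly all of that was Tmem119, from a mean of 23.1 to 10.9 and 11.3 FPKM, and the other 5 averaged below 1 FPKM. The 5 astrocyte markers summed to 12.4 to 14.5 FPKM in the control group. Their sum was higher at 12 h, at 24.3 to 31.0 and 21.3 to 30.2 FPKM. The same held at 24 h, at 21.2 to 26.8 and 19.7 to 32.9 FPKM. Most of this sum was Aldh1l1. Its mean was 9.52 FPKM in the control group, 23.9 and 24.1 at 12 h, and 20.8 and 23.7 at 24 h. Slc1a2 went down, from 2.35 FPKM to 1.38 and 0.822 at 12 h and 0.828 and 1.06 at 24 h. Oligodendrocyte markers summed to at most 1.22 FPKM. Among these, Aqp4, Cx3cr1, Rbfox3 and Olig2 were listed at 0 in every library, as were the pericyte markers Kcnj8 and Abcc9. The part of these markers in the change of any member was not tested.

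With these changes the make-up of the family turned over. The summed FPKM of the 8 genes was 207 ± 2.75 in the control group, 115 ± 5.07 and 155 ± 15.9 at 12 h after 5 Gy and 20 Gy, and 1205 ± 131 and 1301 ± 124 at 24 h (SD, n = 3). Jund was 43.5% ± 2.16 of the sum in the control group, 61.2% ± 4.79 and 54.9% ± 4.79 at 12 h, and 1.96% ± 0.456 and 2.89% ± 0.659 at 24 h. Junb was 31.1% ± 0.562 in the control group, 17.2% ± 4.95 and 23.2% ± 3.54 at 12 h, and 34.3% ± 1.497 and 29.0% ± 1.52 at 24 h.

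Fos went from 4.95% ± 0.463 to 11.4% ± 1.37 and 13.5% ± 1.21 of the family sum at 24 h. Jun, at 10.9% ± 0.712 in the control group, made up 1.55% ± 0.151 24 h after 5 Gy and 11.6% ± 2.09 after 20 Gy. Fosl2 went from 3.99% ± 0.439 to 49.5% ± 2.81 and 40.3% ± 1.75, on the unnamed transcript described above. Without Fosl2 the family sum was 198 ± 3.54 FPKM in the control group and 606 ± 37.0 and 776 ± 64.3 FPKM at 24 h. Beside these sums, Junb had a mean of 64.2 FPKM in the control group and 413 and 376 FPKM at 24 h. The shares of the other members at 24 h given above thus depend on that unnamed transcript.

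**Figure D4:**
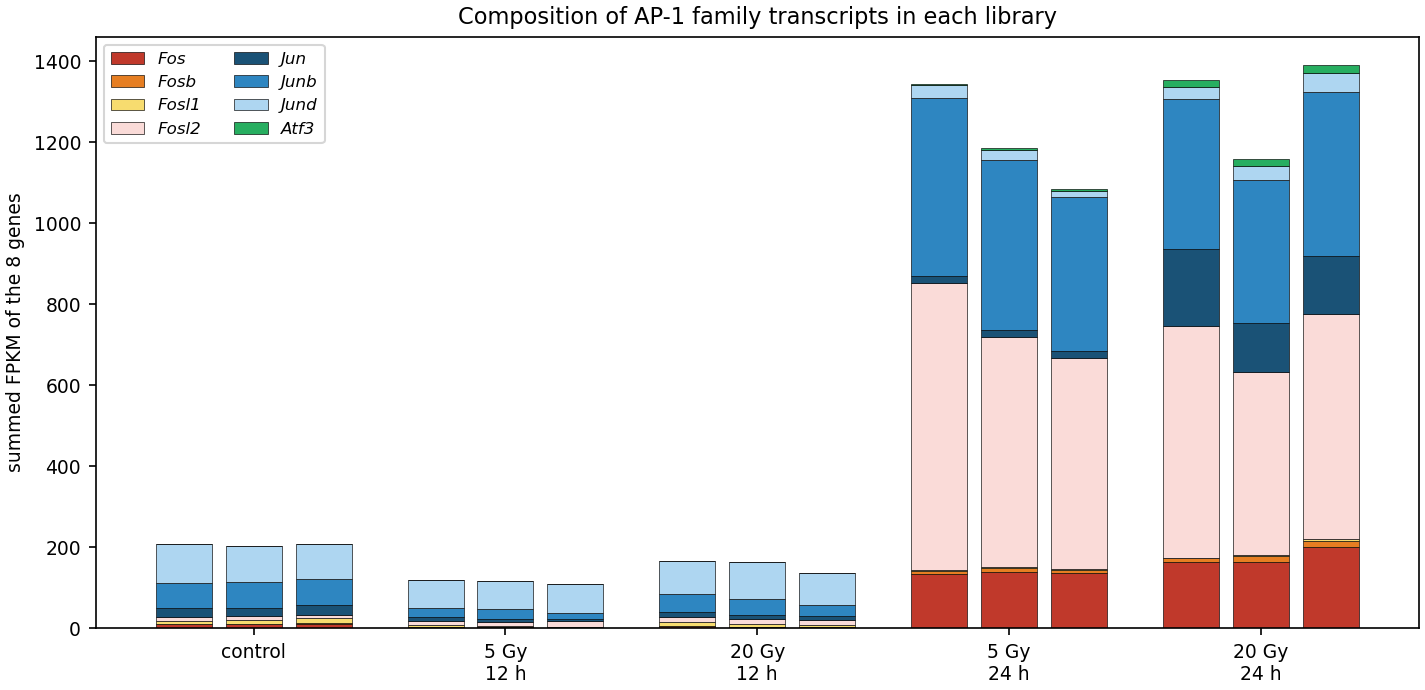
Summed FPKM of the 8 AP-1 genes in each of the 15 libraries, stacked by gene, with the 5 groups along the x axis. The control bars, near 207 FPKM, are mostly Jund and Junb, and the 24 h bars, from 1085 to 1391 FPKM, are mostly Fosl2 and Junb, with a larger Jun part after 20 Gy than after 5 Gy.

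The other genes of the pathway were taken in lists by role. Their counts stand beside the shares of all genes called higher and lower, 20.5% and 20.8% 24 h after 5 Gy, 17% and 23.3% 24 h after 20 Gy, 4.98% and 4.96% 12 h after 5 Gy, and 4.9% and 3.64% 12 h after 20 Gy. Of 11 tested bZIP partners outside the family, 4 rose 24 h after 5 Gy and 0 fell, and 4 rose and 1 fell 24 h after 20 Gy, with list medians of 0.47 and 0.42 against -0.05 and -0.14 over all genes. Ddit3, which encodes the stress factor CHOP, rose by 3.27 and 2.54 on the log2 scale, and Jdp2, a Jun dimerization partner that represses AP-1, by 2.73 and 1.90. The 1 fall was Atf5 (-0.997, adjusted p 0.0263 after 20 Gy), against -0.74 after 5 Gy (adjusted p 0.0877), and it was lost without Control 1 or 2 or the first or the third 20 Gy library (adjusted p 0.0593 to 0.0959). At 12 h Atf4, the translation-linked stress factor, fell by 1.45 after 5 Gy and 0.96 after 20 Gy.

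Of 25 tested upstream kinases and factors, 11 rose and 3 fell 24 h after 5 Gy, and 8 rose and 4 fell 24 h after 20 Gy, with list medians of 0.60 and 0.25. Map3k1, a kinase above the Jun N-terminal kinases, rose by 1.91 and 1.79, and Mef2a, a factor at the Jun promoter, by 1.68 and 1.65. Srf, the serum response factor that switches on Fos, fell in all 4 exposed groups. It fell by 1.503 12 h and by 1.18 24 h after 5 Gy, and fell by 1.57 and 1.72 after 20 Gy. Mapk12 fell by 1.028 and 1.11 at 24 h, and Mapk9 fell by 1.33 24 h after 20 Gy, with -0.30 after 5 Gy (adjusted p 0.467). At 12 h the list had 1 rise and 1 fall after 5 Gy, and 0 rises and 1 fall after 20 Gy.

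Of 10 tested genes of messenger decay and protein turnover that act on AP-1, 5 rose and 0 fell at 24 h at each dose, with list medians of 0.70 and 0.71. Fbxw7, part of a ubiquitin ligase for Jun, rose by 2.48 and 2.47, and Det1, part of another, by 1.30 and 1.10. Elavl1, which encodes the AU-rich element binding protein HuR, rose by 0.96 and 0.85, and Itch, a ligase for Junb, by 0.87 and 0.86. At 12 h the list had 0 rises and 1 fall after 5 Gy, and 1 rise and 0 falls after 20 Gy, with list medians of 0.21 and 0.28. Zfp36l2, which promotes decay of AU-rich messengers, fell by 0.70 12 h after 5 Gy and differed by -0.18 12 h after 20 Gy (adjusted p 0.464). The rise was Det1, by 0.59 12 h after 20 Gy (adjusted p 0.00215 in limma). It was lost without Control 1 (0.50) or the second 20 Gy library (0.56).

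Of 21 tested AP-1 target genes, 8 rose and 7 fell 24 h after 5 Gy, and 7 rose and 6 fell 24 h after 20 Gy, with list medians of 0.06 and 0.02. Lif, a cytokine, rose at all times, by 0.98 and 3.15 12 h and 24 h after 5 Gy and by 1.26 and 2.63 after 20 Gy. Ptgs2, the inducible cyclooxygenase, rose by 1.59 and 2.61 at 24 h, Cxcl1, a chemokine, by 1.56 and 1.72, and Hbegf, a growth factor, by 1.510 and 2.58. Spp1, or osteopontin, fell by 1.82 and 2.27 at 24 h. Timp1, a metalloproteinase inhibitor, fell by 4.85 (adjusted p 0.0136) and 4.76 (adjusted p 0.0154). Its FPKM was 108 to 161 in the control group and 0.239 to 53.8 and 0.249 to 65.3 at 24 h, with 1 library per dose far above the others. Without that library, the third after 5 Gy and the second after 20 Gy, the values were -6.66 in both, and without either of the others in its group they were -3.96 to -3.79 and not called (adjusted p 0.0600 to 0.0690). At 12 h, 1 target rose and 6 fell after 5 Gy and 1 rose and 4 fell after 20 Gy, Hmox1 and Tgfb1 among those that fell at both doses.

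**Figure D5:**
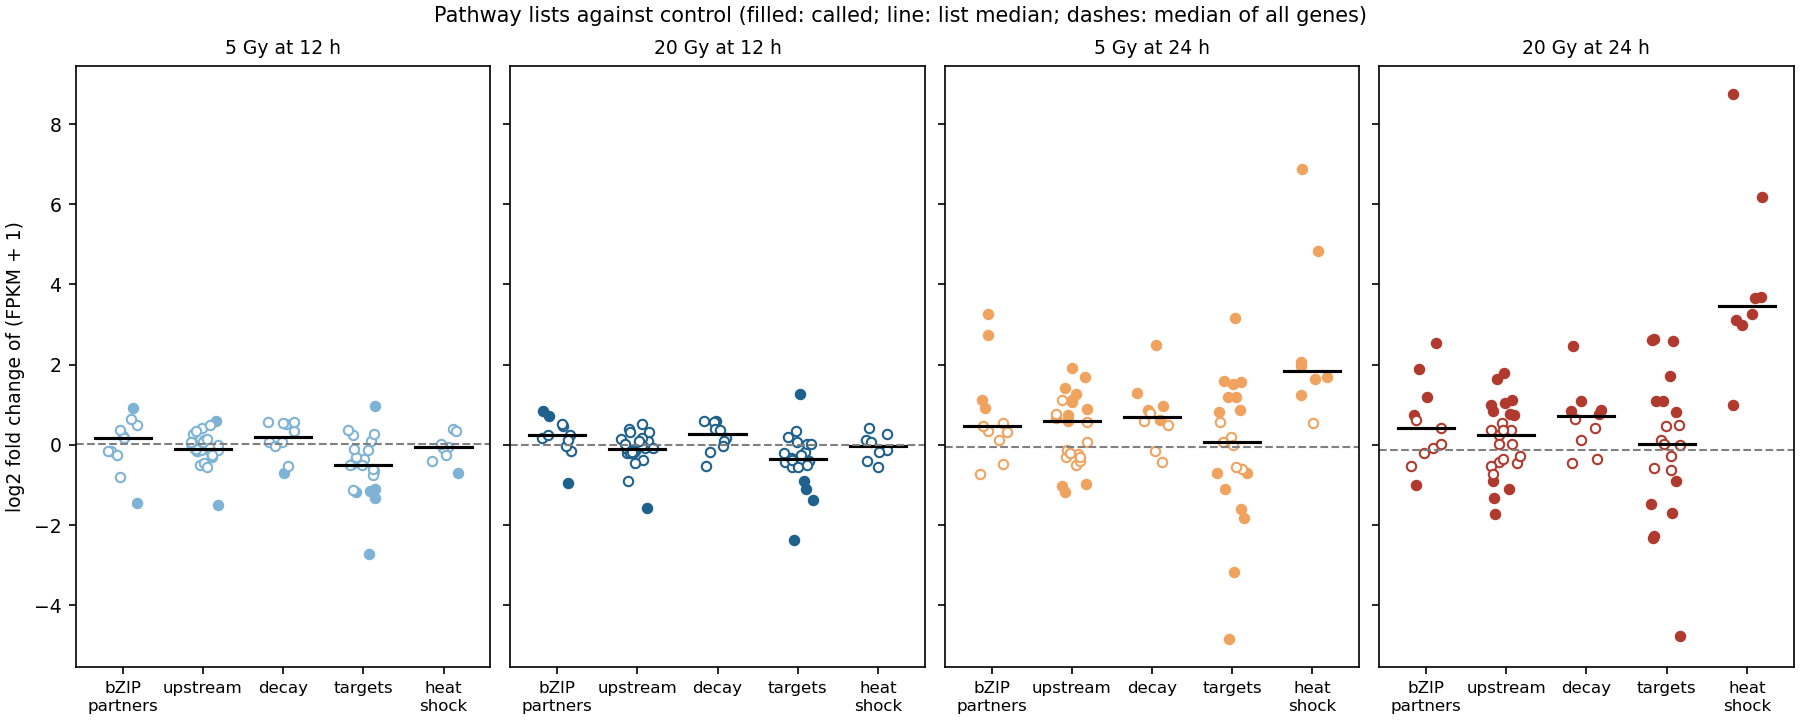
Log2 fold change of FPKM + 1 against the control group for the tested genes of 5 lists (11 bZIP partners, 25 upstream kinases and factors, 10 decay and turnover genes, 21 AP-1 targets and 8 heat shock genes), with 1 panel per exposed group and 1 point per gene. Filled points were called, black lines are list medians and dashes the median of all genes. At 24 h the targets spread to both sides while the heat shock genes lie above 0.

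Genes whose pattern was most like that of each member were found as those with the smallest root mean square difference of the 4 log2 fold changes against control, among 9548 genes with a mean FPKM of at least 5. The 4 fold changes share the control libraries. Closest to Fos were Nr4a1 (difference 0.65) and Gadd45g (0.83), closest to Junb were Hes1 (0.24) and Gadd45b (0.33), and closest to Fosl2 were Nr4a3 (0.34) and Nr4a2 (0.61). Closest to Atf3 were Dnajb1 (0.16) and Hspb1 (0.41), and closest to Fosb was Hspd1 (0.10), all of the heat shock list. For Fosb the unnamed locus MSTRG.7454 (0.24) followed. Control levels of Atf3 and Fosb lay below the pseudocount of 1, which makes their changes smaller. Their matches thus do not show equal changes in FPKM. Mean Atf3 went from 0.835 FPKM in the control group to 0.0894 and 0.0715 at 12 h, and Dnajb1 from 43.6 to 26.5 and 29.2. Mean Fosb went from 0.754 FPKM in the control group to 6.93 24 h after 5 Gy, and Hspd1 from 63.2 to 266. Closest to Jun were Zfand2a (0.66) and Epc1 (0.76). Jund was followed most closely by Tubb6 (0.03) and Rbm14 (0.16), and Fosl1 by Dpysl2 (0.19) and Rbp4 (0.19).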

How the data were processed

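The authors trimmed reads of 150 bases with Trimmomatic, checked them with FastQC, mapped them to Rnor_6.0 with HISAT2 2.0.13, sorted with samtools 1.9 and assembled transcripts with StringTie 1.3.5, and the deposited table gives FPKM for each transcript. Their notes also name kallisto and a count-based test. Counts were not used here, and the strand setting is not given in the sources used here.

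The table held 85322 transcripts, and 4738 of them belonged to no single gene. The FPKM of the others were summed per gene and used as deposited. Genes averaging 0.5 FPKM or more were tested on log2(FPKM + 1) with limma 3.58.1 in R 4.3.3 (two-sided, variance prior with a trend, 10 residual degrees of freedom). Fold changes are on that scale and are understated for low genes. The code was tested on simulated data. Depth was recovered from single-exon transcripts of up to 400 bases, on which 76.8% to 81.1% of low values were within 0.05 of a whole multiple of 1 step, and it limits low genes such as Atf3 and Fosb most.

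The members and the lists were chosen with earlier results of these data known. Up to 3 rising and 3 falling genes of a list are named per comparison, by size of change among called genes averaging 1 FPKM or more. Some results for single genes are not given. The alternatives were another pseudocount, other filters, rescaling, quantile normalization, annotated transcripts only, the top transcript, fits of only the groups compared, no trend, the replicate block, unadjusted p, a fold of 2 and leaving out each library. Motifs were searched in RefSeq promoters of GRCr8, a build other than that of the table. Markers of other cell types were summed in the same way.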

Additional observations from a re-analysis of the deposited data

Results flagged for a closer look

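The change from 12 h to 24 h differed between the doses, by the interaction test in limma, for 2 members and for 7 genes of the lists. Of the genes tested, these 7 were 1 of 21 AP-1 targets and 6 of 8 heat shock genes. The bZIP partners, the upstream genes and the decay genes had 0 calls. Of all genes, 0.257% were called with a larger change after 20 Gy and 0.296% with a smaller one. The change after 20 Gy minus that after 5 Gy was 2.52 on the log2 scale for Jun and 1.97 for Atf3. Among the AP-1 targets it was 0.98 for Hbegf. Among the heat shock genes it was 2.15 for Hspb1, 1.75 for Bag3, 1.61 for Hsph1, 1.498 for Dnajb1, 1.42 for Hspa1b, which may share reads with a near-identical copy, and 1.16 for Hsp90aa1. With 3 libraries per group, no test of single libraries that stand apart was run.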

How the results depend on the processing

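Of 1188 values of single members under the alternatives other than an unadjusted p and a fold of 2, which are counted below, 1164 kept their direction and their side of the threshold, 19 lost the call, 4 gained it and 1 reversed. The reversed value was Fosl2 24 h after 20 Gy with annotated transcripts only, at -0.10. Without unnamed transcripts Fosl2 had no call at 24 h, and neither had Fosl1. With a fold of at least 2, the members called 12 h after 20 Gy went from 4 to 2 (Fos and Jun), where 1.11% of all genes were called lower. With an unadjusted p, the members called between the doses went from 0 to 3 at 12 h and from 2 to 4 at 24 h. Of all genes, 2.02% and 4.84% passed there. Members with a dose-dependent change over time went from 2 to 4, where 12.9% of all genes passed. When each library was left out in turn, the members called ranged from 4 to 5 12 h after 5 Gy, 3 to 4 12 h after 20 Gy, 7 to 8 from 12 h to 24 h after 20 Gy, 2 to 3 between the doses at 24 h and 2 to 3 for the change over time by dose, and were 7 and 8 at 24 h, 7 from 12 h to 24 h after 5 Gy and 0 between the doses at 12 h throughout. Quantile normalization moved the median of all genes by 0.10 24 h after 20 Gy and by 0.11 from 12 h to 24 h after 20 Gy, and rescaling to the same sum moved it by 0.12 24 h after 5 Gy. With quantile normalization Fosb was called between the doses at 24 h (0.85, adjusted p 0.0326).

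Deviations from the group means correlated at -0.177 to 0.232 (median 0.009) in 30 pairs of same-numbered libraries of different groups. In the 60 pairs with different numbers they correlated at -0.209 to 0.203 (median 0.006). The highest correlation of 9 of 15 libraries was with their own number. These values do not settle whether the numbers mark pairs, and they were not taken as pairs in the main test. With the replicate block, the members called were 5 and 7 at 12 h and 24 h after 5 Gy, 4 and 8 after 20 Gy, and 2 for the change over time by dose, and no member's call changed.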
